A study of Mus musculus with 127 samples.

Results

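The germline Chd8 line was examined for RNAs whose balance between a synaptic and a nuclear fraction of the cortex differed between heterozygous (HET) and wild-type (WT) mice. Animals with 1 library from each fraction were taken, which gave 30 of the 127 libraries of the series, from 10 WT animals (5 female, 5 male) and 5 HET animals (2 female, 3 male). The mice were about 60 days old, and the WT mice were littermates of the HET mice. HET mice carried 1 Chd8 allele with a 5 bp deletion in every cell (Chd8+/5bpdel), next to 1 intact allele. Frozen cortex was separated with commercial reagents into a synaptosome fraction and a nuclear fraction, and poly(A) RNA was sequenced. For each animal the synaptic minus nuclear difference in log2 CPM (gene counts scaled to a common library size) was taken, and HET minus WT of that difference is called the interaction here. A negative interaction means that an RNA was lower in the synaptic fraction, relative to the nuclear fraction, in HET than in WT mice. The nuclear and synaptic libraries of an animal were joined by the animal number in the library name. In bulk fractions, fewer particles or nuclei of a kind and less RNA in each cannot be told apart.

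CHD8 is a chromodomain helicase, an enzyme of the nucleus that moves nucleosomes and regulates transcription, and loss-of-function mutations in its gene are associated with autism. Synaptosomes are pinched-off nerve endings with attached postsynaptic membrane, and they carry mRNAs that neurons transport into axons and dendrites, together with some RNA of glial and vascular fragments. Long noncoding RNAs such as Malat1 and Meg3 stay in the nucleus, so their level in a synaptic library is a measure of nuclear RNA in it. Camk2a, which encodes a kinase of the postsynaptic density, is transported into dendrites and marks the synaptic side.

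Nuclear libraries held 23.2 to 50.7 M counts and synaptic libraries 26.6 to 48.0 M. In 13 of the 15 pairs Meg3 was lower in the synaptic library. The synaptic libraries of animals 12M and 13M held Meg3 above their own nuclear libraries, with differences of 0.63 and 0.85, while the other 8 WT pairs lay between -4.26 and -2.17. Both animals also had more RNA of genes known from striatum than any other library pair showed in the nucleus. Rgs9 was at 82.4 and 68.6 CPM of total counts in their nuclear libraries, against 6.31 to 27.1 in the other WT and 14.5 to 36.7 in the HET nuclear libraries. Drd2 was at 27 and 17 CPM there, against at most 7.37 in all other nuclear libraries. The interaction test and each gene list are therefore given with 15 pairs and with 13 pairs, which leave out 12M and 13M. In the pair of animal 29M the nuclear library had female and the synaptic library male sex markers, so its 2 libraries cannot come from 1 animal, and values without it are given for Chd8.

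Batch and genotype overlap only in part. Batch labels are strings of digits, read here as month and day, which no label states. By this reading all 3 HET males carry labels of May, and no paired WT male does. The 3 WT males of the 13 pairs carry labels of June and July. Batch group below means a grouping by these months, with March and April as a further group. For paired males, batch and genotype thus cannot be told apart. Among paired animals only 2 batch labels hold both genotypes, with 3 WT and 1 HET females in 1 of them and 2 WT and 1 HET females in the other.

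No gene passed the test of the interaction. With edgeR's quasi-likelihood test and Benjamini-Hochberg adjustment, 0 of 21515 genes (0%) were called with 15 pairs and 0 of 21004 (0%) with 13 pairs. The smallest adjusted p was 0.588 and 0.777. An unadjusted p under 0.05 was reached by 1552 genes (7.21%) with 15 pairs, of which 586 were higher (2.72%) and 966 lower (4.49%). With 13 pairs 1224 genes reached it (5.83%), 409 higher (1.95%) and 815 lower (3.88%). DESeq2 called 0 genes with 15 pairs and 1 gene with 13 pairs (0.00476%), which was Chd8 at an adjusted p of 0.00609. DESeq2 had 2278 and 1459 genes at an unadjusted p under 0.05, and limma on the per-animal differences called 0 in both sets, with 1778 and 1293 genes. For genes at an average of at least 2 CPM (1 on the log2 scale), the median standard error of the interaction was 0.24 with 15 pairs and 0.19 with 13. The median interaction of all genes was -0.07 and -0.04.

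Chd8, the mutated gene itself, had the smallest p of the 13-pair fit. The gene (ENSMUSG00000053754) lies on chromosome 14 from 52198151 to 52257780 on the minus strand of GRCm38. In the nuclear libraries of HET animals Chd8 was at 96.7 (6F), 77.2 (9F), 111 (16M), 108 (17M) and 126 (18M) CPM after TMM scaling. In their synaptic libraries it was at 48.4, 31.4, 42.3, 45.5 and 44.4 CPM in the same order. The 8 WT animals without 12M and 13M had 83.3 to 105 CPM in the nuclear fraction, with a median of 101. Their synaptic libraries had 45.2 to 85.3 CPM, with a median of 70.5. Animals 12M and 13M had 77.8 and 91.8 CPM in the nuclear and 133 CPM in each synaptic library. In the nuclear fraction the 3 HET males lay above and 9F below all WT animals, with 6F among them, so that HET values spread to both sides of the WT range. The synaptic values overlapped only where 2 HET animals (6F and 17M) lay above the lowest WT animal (5F).

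**Figure D1:**
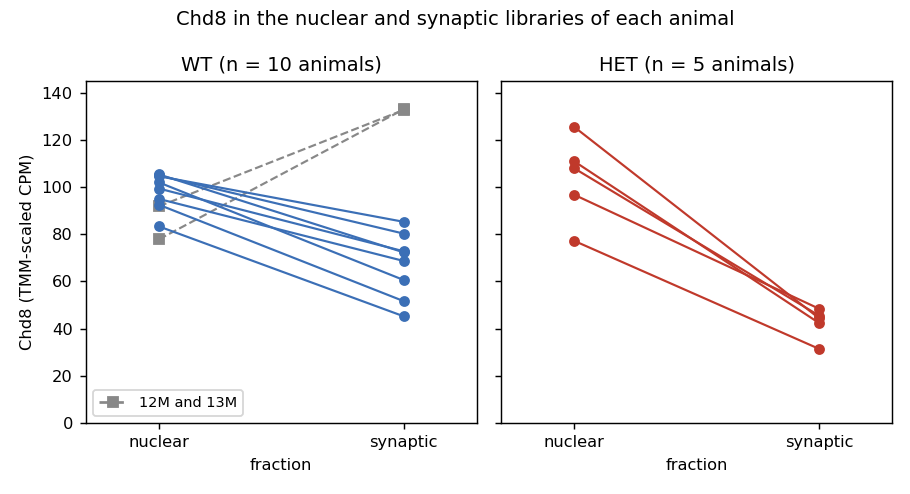
Chd8 level (vertical axis, TMM-scaled CPM) in the nuclear and synaptic library of each animal, joined by a line, for 10 WT animals (left) and 5 HET animals (right). Grey squares with dashed lines are 12M and 13M. All 5 HET lines run from between 77.2 and 126 CPM down to between 31.4 and 48.4 CPM.

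The synaptic minus nuclear difference of Chd8 was -1.50 (18M), -1.39 (16M), -1.30 (9F), -1.25 (17M) and -0.998 (6F) in HET animals. In the 8 WT animals it ran from -0.88 to -0.29 with a median of -0.51, and 12M and 13M were at 0.77 and 0.53. Every HET animal lay below every WT animal. Among all genes, 13 had every HET animal below every WT animal with 15 pairs (0.0604%), and 15 did with 13 pairs (0.0714%). Random assignment of genotype gives this in a share of 0.000333 with 15 pairs and 0.000777 with 13. These shares are of the same order as those seen. The mean was -1.29 ± 0.19 in HET (SD, n = 5) and -0.58 ± 0.22 in WT (SD, n = 8). The mean difference between genotypes was -0.71 with 13 pairs (exact permutation test, two-sided, p = 0.000777, the smallest it can give here). With 15 pairs it was -0.95 (exact permutation p = 0.00266), and without 12M, 13M and 29M it was -0.68 (exact permutation p = 0.00126). Adjusted over the 17 permutation tests of Chd8 made, those of the conditional line included, these p-values were 0.0107, 0.0132 and 0.0107. The edgeR interaction was -0.71 (SE 0.14, adjusted p 0.777) with 13 pairs and -0.95 (SE 0.25, adjusted p 0.588) with 15.

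The 2 fractions were also compared separately. In the synaptic fraction HET minus WT was -0.65 on the log2 scale with 13 pairs and -0.85 with 15 (exact permutation p = 0.00466 and 0.00433, adjusted 0.0132 for both). In the nuclear fraction it was 0.06 and 0.10 (exact permutation p = 0.58 and 0.341). An edgeR fit within the nuclear libraries with sex as a covariate gave 0.02 (SE 0.10) with 13 pairs. Libraries without a partner were read on the scale of total counts. The synaptic libraries of 2 further HET animals had 33.7 and 33.8 CPM of Chd8, and that of 1 further WT animal had 49.8. On that scale the paired synaptic libraries had 25.6 to 38.8 CPM in HET and 36.2 to 65.3 in the 8 WT animals, which overlap. The 4 further nuclear HET libraries had 105 to 115 CPM and the 2 WT ones 114 and 131. A gene on the opposite strand, Gm26590, shares exon positions with Chd8. No source used here gives the strand setting of the counting, so reads of the 2 genes cannot be told apart.

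The Chd8 interaction was taken apart by sex and by batch label. Among females HET minus WT was -0.45 (exact permutation p = 0.0952, with 5 WT and 2 HET animals), and each HET female lay below each WT female. In the 2 batch labels that hold both genotypes it was -0.42 and -0.44, together -0.43 (exact permutation within the labels, p = 0.0833, the smallest possible). Among males it was -0.99 without 12M and 13M (exact permutation p = 0.1, the smallest possible) and -1.41 with them (exact permutation p = 0.0179). The difference between males and females was -0.54 with 13 pairs (exact permutation of sex within genotype, p = 0.0179, adjusted 0.038) and -0.95 with 15 (p = 0.00397, adjusted 0.0132, by the same exact permutation). The WT males include 29M, whose nuclear library is female by its markers. Without 29M as well, the male value was -0.997 (exact permutation p = 0.1, the smallest possible) and the difference between the sexes -0.54, which no longer passed after adjustment (exact permutation p = 0.0333, adjusted 0.063). The 3 HET and 3 WT males differ in batch as well, so sex and batch cannot be told apart. With sex and batch group as terms of the fit, the edgeR interaction of Chd8 was -0.43 (SE 0.15) with 13 pairs and -1.07 (SE 0.24) with 15. With 13 pairs these terms take up all males. That value thus rests on the females of the 2 shared labels alone and repeats their -0.43.

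Nuclear-retained RNAs were lowest, relative to their nuclear libraries, in the synaptic libraries of the 3 HET males. The list of 16 nuclear-retained RNAs had a median interaction of -0.38 with 13 pairs and -0.86 with 15, and 15 of 16 members were below 0 in both. None was called by edgeR, and 7 and 6 of the 16 had an unadjusted p under 0.05, all lower. Of all genes 3.88% and 4.49% were lower at that p with 13 and 15 pairs. Malat1 had differences of -6.58 (16M), -5.30 (17M), -4.20 (18M), -3.38 (9F) and -3.22 (6F) in HET animals, and -4.55 to -2.16 in the 8 WT animals. Meg3 had -5.53 (16M), -4.99 (17M), -4.55 (18M), -3.75 (9F) and -2.96 (6F) in HET and -4.26 to -2.17 in the 8 WT animals. The 3 HET males were thus below the WT range for Meg3, and the 2 HET females lay inside it. The interaction was -1.17 (SE 0.53) for Malat1 and -1.09 (SE 0.40) for Meg3 with 13 pairs. Among females alone it was 0.12 and 0.23, and with sex and batch group in the 13-pair fit 0.03 and 0.21. The sign turned in both, but that 13-pair fit rests on the same females. Camk2a had an interaction of -0.16 (SE 0.26) with 13 pairs and -0.06 (SE 0.27) with 15, and its per-animal differences were above 0 in all 15 animals.

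Chd8 was set beside this measure directly. With the per-animal difference of the nuclear-retained list (without Xist) as a covariate, a choice made after the data were seen, its interaction was -0.67 (SE 0.16) with 13 pairs and -0.54 (SE 0.18) with 15. Among females, where the nuclear-retained list had a median interaction of 0.08, Chd8 was at -0.45, with 2 HET animals. With the covariate Chd8 did not pass (edgeR adjusted p 0.96 with 13 pairs and 0.888 with 15). The part of nuclear RNA in the Chd8 interaction was not tested.

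Genes grouped by their own fraction in other mice behaved differently from each other. Classes were set in the WT animals of the conditional line, a separate set of mice described further on, by a synaptic minus nuclear difference beyond 1 log2 unit either way. With 13 pairs the 4486 nuclear-enriched genes had a median interaction of -0.28, with 28.4% above 0. The 1745 synaptic-enriched genes had a median of 0.29, with 88.7% above 0, and the 12371 genes between had -0.02, with 45.6% above 0. With 15 pairs the medians were -0.72, 0.45 and 0.01. Among females alone they were 0.04, 0.11 and -0.04, and with the nuclear-retained covariate in 13 pairs 0.02, 0.17 and -0.04. With sex and batch group as terms in 13 pairs they were 0.017, 0.16 and -0.05. With sex and batch group as terms in 15 pairs the median of the nuclear-enriched class was -0.82. The covariate is itself made of nuclear-retained RNAs. The 13-pair fit with sex and batch group rests on the females alone. These settings are thus not separate checks. The part of nuclear RNA in the single interactions below was not tested beyond these values.

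By the rule for named genes, with no gene called, the 4 smallest p-values in each direction from either fit were taken, and none of the 13 genes passed in edgeR. Lower in synaptic relative to nuclear libraries of HET mice were Chd8, Cep70, Rgs9, Scx, Bicdl1, Dzip1 and Taf1d. Cep70 and Dzip1 encode proteins of centrosomes and cilia, Bicdl1 an adaptor of dynein transport, Taf1d a subunit of the RNA polymerase I machinery, Scx a transcription factor best known from tendon, and Rgs9 a regulator of G protein signalling that is abundant in striatum. Higher were Chsy1, Slc16a1, Gpr62, Shisa2, Heg1 and Layn. Chsy1 encodes a chondroitin sulfate synthase, Slc16a1 the lactate transporter MCT1, Layn a hyaluronan receptor, Heg1 a membrane protein of endothelium, Gpr62 an orphan receptor and Shisa2 a protein that restrains Wnt and FGF receptors.

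Chsy1 (chromosome 7, 66109515 to 66173798) was the gene of the higher group whose animals did not overlap between genotypes. Its difference was 1.25 (17M), 1.12 (6F), 1.05 (18M), 0.85 (16M) and 0.64 (9F) in HET animals. The 8 WT animals had 0.10 to 0.55 with a median of 0.33, and 12M and 13M had -0.32 and -0.50. Every HET animal was above every WT animal, which 5 genes showed with 15 pairs (0.0232%) and 14 with 13 pairs (0.0667%). Both shares are below those of random assignment given for Chd8. Chsy1 was picked by its small p in the same data, so its lack of overlap is no separate support. The nuclear level was 10.5 ± 1.65 CPM in HET (SD, n = 5) against 13.8 ± 1.26 in WT (SD, n = 8), and the synaptic level 20.9 ± 3.6 against 17.5 ± 2.43. The interaction was 0.65 (SE 0.15) with 13 pairs and 0.80 (SE 0.19) with 15, and it was 0.67 and 0.46 in the 2 batch labels with both genotypes. Gm26827 on the opposite strand overlaps Chsy1.

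Slc16a1 (chromosome 3, 104638668 to 104658462) had differences of 0.03 (17M), -0.22 (16M), -0.42 (18M), -0.53 (6F) and -1.36 (9F) in HET animals. The 8 WT animals had -1.80 to -0.75 with a median of -1.43, so that 9F lay within the WT range and the other 4 HET animals above it. Its nuclear level was 71.8 ± 11.9 CPM in HET (SD, n = 5) and 100 ± 17.5 in WT (SD, n = 8). Its interaction was 0.91 (SE 0.21) with 13 pairs and 0.87 (SE 0.21) with 15.

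Cep70 (chromosome 9, 99243367 to 99300404) had close HET values in the nucleus. Its nuclear level was 36.9 to 38.1 CPM in the 5 HET animals and 26.7 to 38.1 in the 8 WT animals. Its synaptic level was 5.97 to 8.10 CPM in HET and 8.16 to 12.2 in WT, ranges that nearly met. Cep70 was picked by its small p in the same data, so a lack of overlap is no separate support. The difference was -2.63 (16M), -2.38 (17M), -2.34 (18M), -2.25 (9F) and -2.18 (6F) in HET and -2.16 to -1.29 in the 8 WT animals. The highest HET and the lowest WT value are thus close. Its interaction was -0.68 (SE 0.16) with 13 pairs and -1.08 (SE 0.39) with 15, and 2 genes on the opposite strand overlap it.

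Rgs9 (chromosome 11, 109225355 to 109298129) had differences of -0.94 (16M), -0.88 (18M), -0.71 (17M), -0.61 (6F) and -0.55 (9F) in HET animals. In the 8 WT animals they ran from -0.43 to 0.83 with a median of -0.13, and 12M and 13M were at 0.95 and 0.88. Its interaction was -0.70 (SE 0.18) with 13 pairs and -0.90 (SE 0.24) with 15. Its levels followed the other striatal genes between animals, and the part of dissection in them was not tested.

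Scx (chromosome 15, 76457452 to 76459458) was scarce, at 1.24 to 2.92 CPM in the 13 nuclear libraries. Its differences were 0.03 (9F), -0.27 (6F), -0.33 (17M), -0.52 (18M) and -1.06 (16M) in HET and 0.04 to 0.92 in the 8 WT animals. The interaction was -0.97 (SE 0.29) with 13 pairs and -1.18 (SE 0.33) with 15. Taf1d, at -0.83 (SE 0.19) with 13 pairs and -1.28 (SE 0.45) with 15, shares exon positions with 12 other genes, 10 of them on its own strand, so its counts are uncertain.

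**Figure D2:**
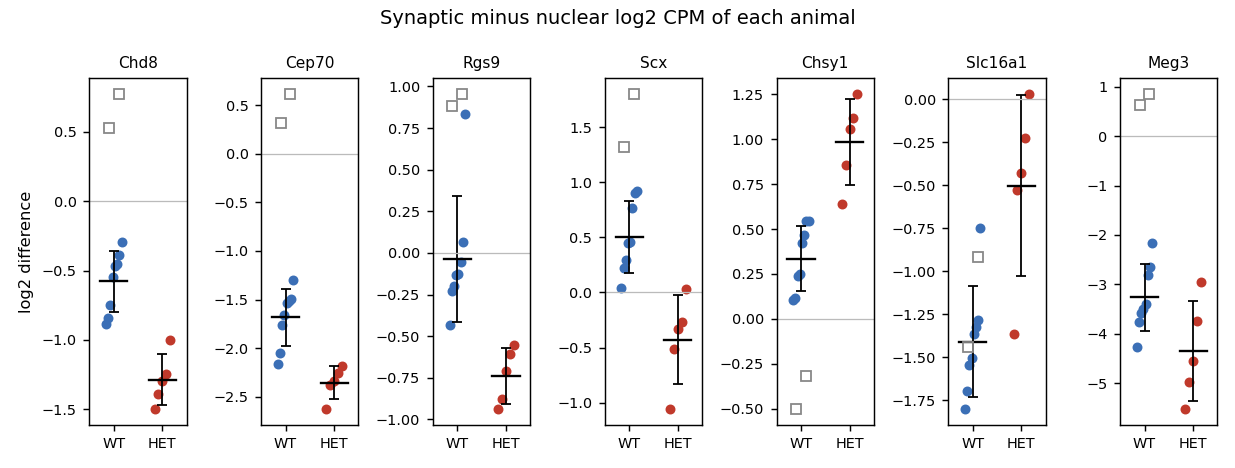
Synaptic minus nuclear log2 CPM of each animal (vertical axis, a separate scale for each gene) for 7 genes. Blue points are the 8 WT animals, red points the 5 HET animals, black lines their mean and SD, and grey squares 12M and 13M. For Chd8, Cep70, Rgs9, Scx and Chsy1 the genotypes do not overlap, and for Slc16a1 and Meg3 they do. Apart from Chd8 and Meg3 the genes were picked by small p in these data, so lack of overlap is no separate support.

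**Figure D3:**
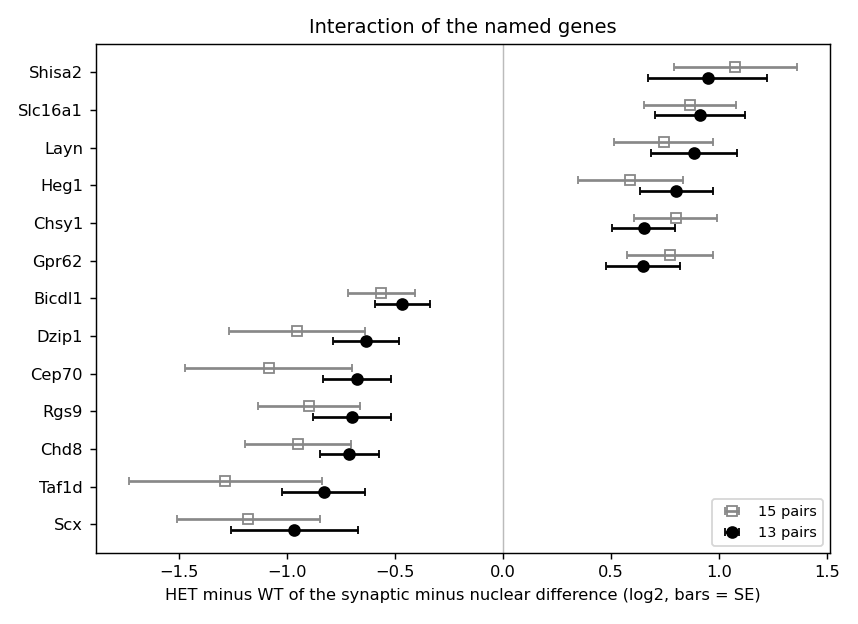
Interaction (horizontal axis, log2) of the 13 named genes with its standard error, with 15 pairs (open squares) and 13 pairs (filled circles). Each gene keeps its sign between the 2 sets, and Heg1, Layn and Slc16a1 are the 3 with a larger value in 13 pairs.

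Cytosolic ribosomal protein genes, which encode the protein part of the ribosome and are abundant in synaptic fractions, were below 0 in all 79 members with 13 pairs. Their median interaction was -0.34, and 17 of 79 had an unadjusted p under 0.05, among them Rpl35a, Rpl36a and Rps19, all lower, and 0 were called. Of all genes 3.88% were lower at that p. Averaged over the list, the synaptic minus nuclear difference was 0.18 (18M), 0.19 (17M), 0.27 (6F), 0.51 (16M) and 0.75 (9F) in HET animals. The 8 WT animals had -0.12 (29M) to 1.31 (4F), so that all HET animals lay inside the WT range. In the 2 batch labels shared by both genotypes the HET female had the lowest list mean each time, with 0.27 against 0.60 to 0.79 and 0.75 against 0.97 to 1.31. With 15 pairs the median was -0.07 and 17 of 79 were above 0, with 12M and 13M at list means of -0.41 and -0.69. Without 29M the 13-pair median was -0.46. Many ribosomal protein genes have processed copies that can share reads.

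Nuclear-encoded subunits of the respiratory chain and ATP synthase took a like course. With 13 pairs 72 of 74 were below 0 with a median of -0.21. Of the 74, 7 had an unadjusted p under 0.05, all lower, among them Ndufs6 and Uqcrq, against 3.88% of all genes lower. With 15 pairs the median was -0.01 with 35 of 74 above 0. Among females the median was -0.39 for ribosomal proteins and -0.30 for these genes. The 13 mRNAs encoded in mitochondrial DNA had a median of -0.05 with 13 pairs and 0.11 with 15.

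Clustered protocadherins, adhesion proteins whose many isoforms give neurons a surface identity, had the highest list median, 0.54 with 13 pairs and 0.63 with 15. In 13 pairs 52 of 54 tested members (of 57 listed) were above 0, and 13 had an unadjusted p under 0.05, all higher. With 15 pairs these counts were 53 and 15. Of all genes 1.95% and 2.72% were higher at that p with 13 and 15 pairs. Pcdha2 had an interaction of 1.48 (SE 0.39) and Pcdhb2 of 1.35 (SE 0.44) with 13 pairs. The list mean was 2.35 (18M), 2.03 (17M), 1.85 (16M), 1.73 (6F) and 1.12 (9F) in HET animals and 0.20 to 2.00 in the 8 WT animals. The lowest WT values, 0.20 and 0.22, came from 5F and 4F, which share a batch label with 9F, and the 3 WT females of the other shared label had 1.45 to 1.56 against 1.73 in 6F. Without 5F the median was 0.36 with 13 pairs. The median was 0.46 among females and 0.41 with the nuclear-retained covariate in 13 pairs. Members of the alpha and of the gamma cluster share constant exons, and beta genes are close in sequence, so counts of members may not be independent.

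**Figure D4:**
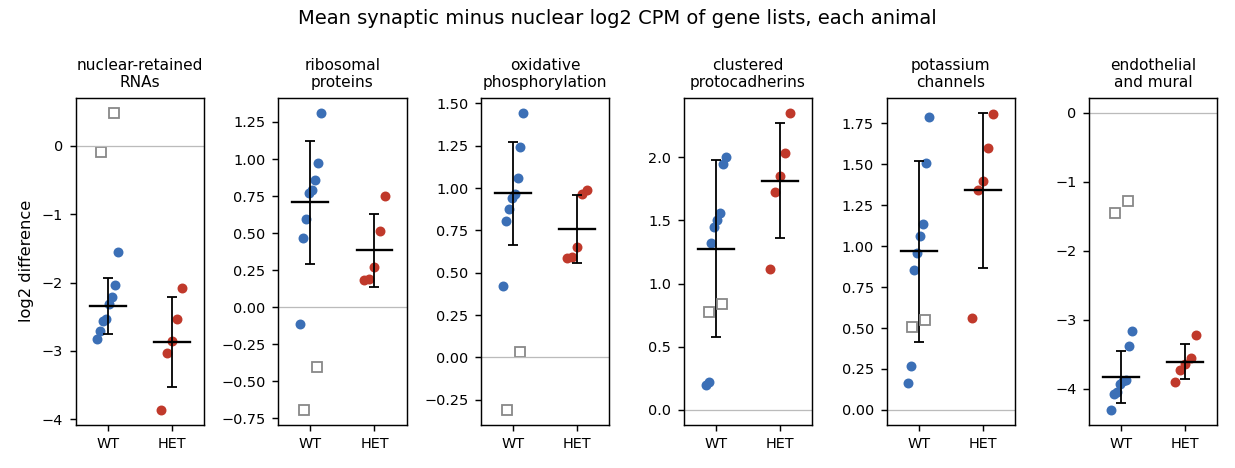
Mean synaptic minus nuclear log2 CPM over the tested genes of 6 lists in each animal (vertical axis, a separate scale for each list). Blue points are the 8 WT animals, red points the 5 HET animals, black lines mean and SD, and grey squares 12M and 13M. The genotypes overlap in every list shown.

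Ion channel and receptor genes, whose RNAs reach neurites, were mostly above 0. Voltage-gated potassium channels had 25 of 27 members above 0 in both sets, with a median of 0.38 with 13 pairs and 0.46 with 15. Of these 2 and 9 had an unadjusted p under 0.05, and in 13 pairs these were Kcnh2 at 0.37 (SE 0.16) and Kcns2 at 0.56 (SE 0.25). Sodium channels had 8 of 9 above 0 in both sets, with medians of 0.37 and 0.41. Calcium channels had 11 of 15 above 0 with a median of 0.20 with 13 pairs, and 9 of 15 with 0.03 with 15. The GABA receptor and inhibitory synapse list had 21 of 21 above 0, with a median of 0.30 with 13 pairs and 0.45 with 15, and 0 and 1 of them at an unadjusted p under 0.05. Postsynaptic receptors and scaffolds had 23 of 33 above 0 in both sets, with medians of 0.30 and 0.23. Presynaptic release genes had 20 of 37 above 0 with a median of 0.02 with 13 pairs, and 28 of 37 with 0.16 with 15. The dendritic and synaptic RNAs, Camk2a among them, had 5 of 25 with -0.15, and 11 of 25 with -0.06. For comparison, 44.6% of all genes were above 0 with 13 pairs and 43.8% with 15. At an unadjusted p under 0.05, 1.95% and 2.72% of all genes were higher. The synaptic-enriched class as a whole was at 0.29, and whether a list differs from it was not tested.

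**Figure D5:**
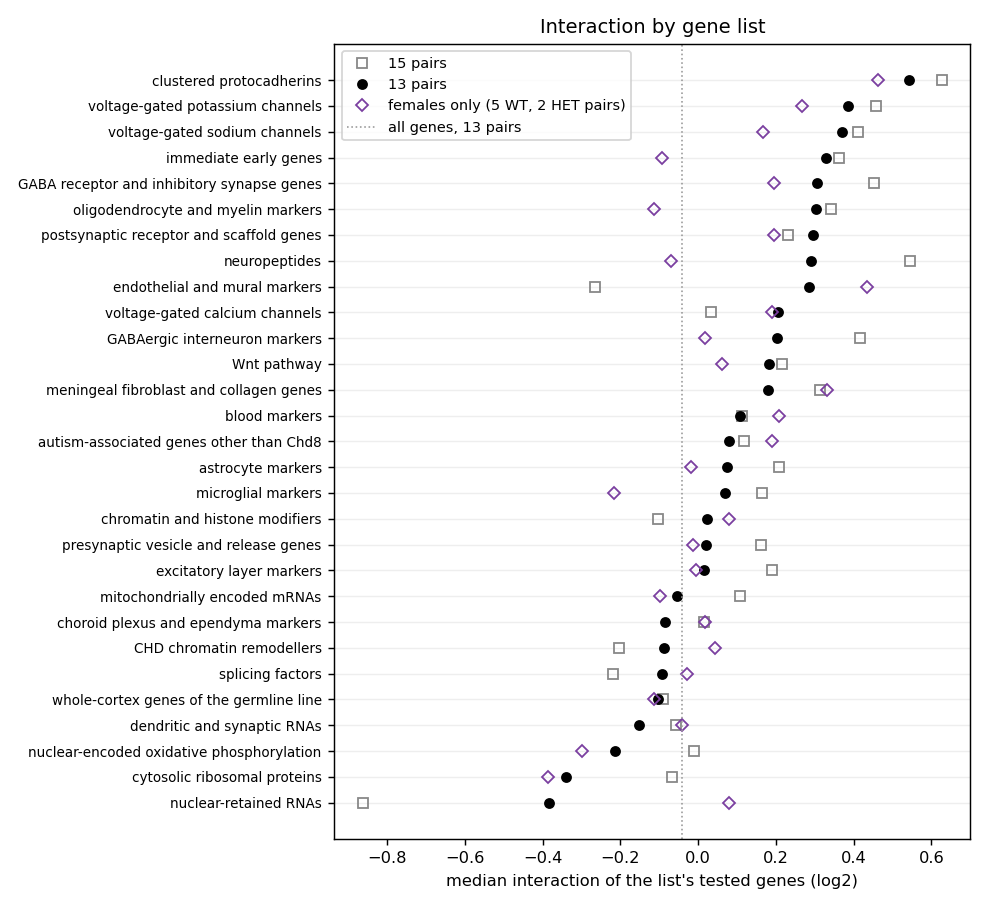
Median interaction (horizontal axis, log2) of the tested genes of each of 29 lists, ordered by the 13-pair value, with 15 pairs (open squares), 13 pairs (filled circles) and females alone (diamonds). The dotted line is the median of all genes with 13 pairs (-0.04). Clustered protocadherins are at the upper end in 15 and 13 pairs, and the nuclear-retained RNAs at the lower end.

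Markers of other cell types were compared in the same way. Endothelial and mural markers, genes of blood vessels, had a median of 0.28 with 13 pairs, 22 of 25 above 0, and -0.26 with 15 pairs, 7 of 25 above 0. The list mean was -1.45 and -1.28 in 12M and 13M, -4.31 to -3.16 in the other WT and -3.91 to -3.21 in the HET animals. The sign of this list thus turned with those 2 animals. Oligodendrocyte and myelin markers had medians of 0.30 with 13 pairs and 0.34 with 15, and -0.11 among females. GABAergic interneuron markers had medians of 0.20 with 13 and 0.42 with 15 pairs, microglial markers 0.068 and 0.16, astrocyte markers 0.075 and 0.21, and excitatory layer markers 0.02 and 0.19. Among females these lists were at 0.017, -0.22, -0.018 and -0.0046. With 13 and 15 pairs meningeal genes had 0.18 and 0.31, blood markers 0.11 and 0.11, and choroid plexus markers -0.08 and 0.02. Their medians among females were 0.33, 0.21 and 0.019, and that of endothelial and mural markers was 0.43. Neuropeptides had 23 of 24 above 0 in both sets, with medians of 0.29 and 0.54, and -0.07 among females. Immediate early genes, which respond to neuronal activity, had 0.33 and 0.36, and -0.09 among females.

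The CHD list of 9 chromatin remodellers had a median of -0.09 with 13 pairs, 7 of 9 below 0, and -0.20 with 15 pairs, 9 of 9 below 0. Chd8 was its 1 member at an unadjusted p under 0.05 in both sets. Chd5, a neuronal relative, was at -0.19 (SE 0.16) with 13 pairs and -0.36 (SE 0.22) with 15. Chromatin modifiers turned sign, with a median of 0.02 with 13 pairs and -0.10 with 15, where 34 of 45 were below 0. Splicing factors had -0.09 and -0.22, Wnt pathway genes 0.18 and 0.22, and autism-associated genes other than Chd8 0.08 and 0.12. The 15 genes that had differed in whole cortex of this line, which were chosen on other libraries of the same study, had medians of -0.10 and -0.09, with 5 of 15 above 0 and Rec8 the 1 at an unadjusted p under 0.05.

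Within each fraction of the same 15 pairs, with sex as a covariate, edgeR called 0 of 20863 genes (0%) in nuclear and 0 of 17644 (0%) in synaptic libraries. An unadjusted p under 0.05 was reached by 1458 of the 20863 and by 2224 of the 17644. Of the named genes, Dzip1 was at -0.51 (SE 0.08) and Bicdl1 at -0.37 (SE 0.08) in the synaptic libraries with 13 pairs, against 0.10 (SE 0.11) and 0.05 (SE 0.10) in the nuclear ones. Slc16a1 was at -0.49 (SE 0.13) in nuclear and 0.32 (SE 0.13) in synaptic libraries, so that its interaction came from both. Chsy1 was at -0.40 (SE 0.12) in nuclear and 0.23 (SE 0.13) in synaptic libraries.

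The conditional line gave the same measurement in other mice, in which Camk2a-Cre, active in excitatory forebrain neurons, acts on a floxed Chd8 allele. It comprised 4 WT, 5 HET and 3 homozygous (HOM) pairs, all with Cre. The interaction test called 0 of 21577 genes (0%) for HET and 0 (0%) for HOM. Of the same 21577 genes, 624 for HET and 1032 for HOM had an unadjusted p under 0.05. The Chd8 differences were -0.73, -0.45, -0.40, -0.18 and 0.02 in HET, -0.44, -0.34 and 0.11 in HOM, and -0.38, -0.38, -0.25 and 0.02 in WT animals. The 3 genotypes overlapped, with HET minus WT at -0.10 (exact permutation p = 0.556) and HOM minus WT at 0.02 (exact permutation p = 0.857). The difference from the germline value was not tested, since the 2 lines were counted in separate tables. Slc16a1 was at 0.42 (SE 0.19) for conditional HET and 0.54 for HOM, Heg1 at 0.40 (SE 0.22) and 0.56, Chsy1 at -0.02 (SE 0.15) and -0.29, and Cep70 at 0.03 (SE 0.21) and 0.01. Rgs9 was at 0.23 and 0.24, Taf1d at 0.36 and -0.02, Dzip1 at 0.07 and 0.18, and Bicdl1 at -0.12 and 0.05. Scx had -0.21 and 0.33, Gpr62 -0.10 and -0.18, Shisa2 0.03 and -0.38, and Layn 0.07 and -0.05. Endothelial and mural markers had medians of 0.57 and 0.48 there. Whether Slc16a1 and Heg1 differ from that list was not tested. Clustered protocadherins had medians of 0.10 and -0.05 there, and ribosomal proteins -0.15 and -0.23.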

How the data were processed

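The authors deposited raw counts per gene. The submitters' processing notes name STAR 2.5.4b, GRCm38 and featureCounts 2.0.0. Of 54838 gene rows, 54723 IDs matched a symbol. Even counts made up 60.8 to 74.3% of counts from 10 to 200, so mates may have been counted separately and totals are taken as counts, not fragments. Genotype, sex and batch came from the labels, and batch groups from reading the digits of the batch labels as dates. The interaction was fitted with edgeR 4.0.16 (R 4.3.3, quasi-likelihood, TMM over all libraries, filterByExpr, animal as a block, Benjamini-Hochberg at 0.05). Per-animal values are log2 CPM with a prior count of 2. DESeq2 1.42.0 and limma 3.58.1 were alternatives, beside other scalings, covariates and left-out animals. Standard errors were derived from F statistics. Pairs rest on animal numbers in library names. Deviations of the 2 libraries of an animal from their group means correlated at a median of 0.16, against 0.02 for libraries of different animals. The correlation was above 0.1 in 10 of 15 pairs and below 0 in 13M (-0.09) and 29M (-0.17). An animal's own partner gave the highest correlation in only 3 of 15 pairs, so these values do not settle the pairing. Libraries of a group always differed beyond sampling noise, with a chi-square of at least 8.21 per degree of freedom. One conditional animal whose 2 libraries carry different genotypes was left out. Chd8 was tested with exact two-sided permutation tests. Scripts were tested on simulated data. The rule for named genes was Chd8, then up to 8 called genes each way per fit with an ordinary symbol and an average log2 CPM from 1 upward, filled to 4 by smallest p where fewer passed, then the 2 smallest p of any list with a called member, with Malat1, Meg3 and Camk2a as checks. The members, the 29 lists and the striatal genes were chosen with earlier results of these data known. Coordinates are those of the deposited table. Figures were drawn with matplotlib 3.10.9.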

Additional observations from a re-analysis of the deposited data

Results flagged for a closer look

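Single animals far from the rest of their group were looked for in 135 groups of per-animal differences, of which 8 had one, and chance gives about 1 in 20. For Rgs9, 25M was at 0.83 among the 8 WT animals, with the next at 0.06. In HET animals 9F was lowest for sodium channels (0.37, next 1.06) and for the GABA receptor and inhibitory synapse list (0.86, next 1.62), and highest for blood markers (-0.30, next -0.79). In the 10 WT animals 13M was lowest for excitatory layer markers (0.11, next 0.45) and for oligodendrocyte and myelin markers (-0.10, next 0.34). Blood markers were highest in 5F, at 0.03, with the next WT value at -0.54 in 10 pairs and -0.71 in 8.

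The Chd8 interaction differed between males and females by -0.54 with 13 pairs and by -0.95 with 15, by the exact permutation test given above. Without 29M as well it was -0.54, which passed before adjustment (exact permutation p = 0.0333) and not after it (0.063). Sex and batch cannot be told apart in it.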

How the results depend on the processing

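The count of genes called for the interaction was 0 under every edgeR and limma alternative tried, and DESeq2 called 1 with 13 pairs, Chd8 at -0.71 (adjusted p 0.00609). Over the alternatives the Chd8 interaction stayed below 0. Leaving out 1 animal at a time gave -1.02 to -0.83 with 15 pairs and -0.78 to -0.66 with 13, and the called count stayed at 0. Without the replicate block, that is without pairing libraries by animal, Chd8 was at -1.04 with 15 pairs and -0.74 with 13 and the count of calls was 0, so the block changed no call. Camk2a turned sign with 15 pairs among females (0.068), with sex added (0.0027), with sex and batch group added (0.054, and 0.077 with 13 pairs) and in leave-one-out, from -0.21 to 0.054. Malat1 and Meg3 turned among females (0.12 and 0.23) and with sex and batch group in 13 pairs (0.035 and 0.21). That 13-pair fit rests on the same females. Nuclear Chd8 was at -0.021 with sex and batch group. Leaving out 1 animal gave 0 to 1 called genes in nuclear libraries (1 without 24M) and 0 to 22 in synaptic ones (22 without 6F), and conditional HOM Chd8 from -0.21 to 0.11. The cause of these turns was not tested. Of 816 gene results under alternatives 803 kept their direction and their side of the threshold. Another 12 turned sign and 1, Chd8 under DESeq2, came to pass the threshold. Of 1479 list medians 12 moved by more than the SD of the list mean among WT animals. That count leaves out smaller moves that turn the sign, and with 15 pairs the SD includes 12M and 13M. Among females the nuclear-retained median turned from -0.86 to 0.08 and that of neuropeptides from 0.54 to -0.07, and neither was counted as moved. Few HET animals, 5 in all and 2 female, limit every value.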
